A study of Rattus norvegicus with 9 samples.

Results

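The genes described here are 46 that act in DNA replication and mitosis, found by symbol in the deposited gene counts of a rat femur study. They were named from knowledge of the cell cycle, but with earlier results of these data in view, so their shared direction is not independent evidence. Each of the 46 matched 1 of the 31125 gene rows, and all 46 were among the 15936 genes with enough counts to test. They fall into 21 replication genes and 25 mitotic genes. The libraries came from femurs of male rats taken at day 7, with 3 libraries in each of 3 groups. Sham animals had sham surgery, GPI animals had an injury of the distal femoral growth plate, and GMTT animals had that injury and a hydrogel called GMTT, named in the series title as GelMA (gelatin carrying methacryloyl groups), TPGS (a form of vitamin E) and polyphenols of tea. The labels describe the femurs as intact in all 3 groups, and they give no strain or age. The comparisons ask how the injury, and the gel after the injury, went with the level of the genes of cell division.

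A cell that commits to division first loads the MCM helicase onto origins with the loaders CDC6 and CDT1, and cyclin E with its kinase partner then starts S phase. The helicase opens the DNA, polymerase alpha and primase lay primers, the sliding clamp PCNA holds the polymerases, and ribonucleotide reductase supplies deoxynucleotides. Cyclin B with CDK1 next drives entry into mitosis, the kinesins and kinetochore proteins move chromosomes on the spindle, the BUB and MAD proteins hold anaphase back until all are attached, and CDC20 with the anaphase-promoting complex releases it. In a growing femur, the dividing cells lie mainly in the marrow (precursors of red cells, neutrophils and B cells) and in the proliferative zone of the growth plate, whereas mature muscle fibres do not divide.

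The libraries held 15927429 to 19715997 counts each. The GPI libraries stood apart from the other 6 in makeup. Skeletal muscle markers (14 genes, all detected in every group) took 13.8% to 14.1% of counts in GPI, 0.268% to 0.283% in Sham and 2.52% to 2.68% in GMTT, and the 13 mitochondrially encoded genes took 25.4% to 26.9%, 3.65% to 4.02% and 5.73% to 6.41%. The bone markers (8 genes) were detected in every group, but at 0.0131% to 0.0140% of counts in GPI against 0.0967% to 0.103% in Sham and 0.0731% to 0.0755% in GMTT. The cartilage markers (11 genes) took 0.0202% to 0.0204% of counts in GPI, 0.0255% to 0.0270% in Sham and 0.0385% to 0.0412% in GMTT. Among them, Cnmd was at 0 in Sham and GMTT and Matn1 was at 0 in GPI. The counts were scaled between libraries by TMM, which left the median gene at -0.19 on the log2 scale in GPI against Sham, and levels below are TMM-scaled CPM. A gene was called at an adjusted p below 0.05 in edgeR's quasi-likelihood test, with the Benjamini-Hochberg method over all genes tested.

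The upstream sequences of the genes are shown first, because replication and mitotic genes are known to carry different promoter elements: E2F sites in the former, and the cell cycle homology region (CHR) with CCAAT boxes in the latter. RefSeq promoter windows of the rat assembly GRCr8, from 250 bases before to 50 after the start, were available for 36 of the 46 genes (16 replication and 20 mitotic). These are coordinates of another assembly than the one behind the counts, and no count was read from them. The windows were searched on both strands for E2F sites (TTTCCCGC, TTTCGCGC, TTTGCCGC or TTTGGCGC, where overlapping matches each count), for CHR (TTTGAA) and for CCAAT. The 3 replication genes below have an E2F site in the 150 bases before the start, printed 5′ to 3′ with the matched motifs in capitals.
Mcm5, chr19:13488663-13488812, plus strand: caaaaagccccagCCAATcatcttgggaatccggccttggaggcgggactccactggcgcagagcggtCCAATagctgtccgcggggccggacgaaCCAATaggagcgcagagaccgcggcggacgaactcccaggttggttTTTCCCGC
Mcm6, chr13:42404353-42404502, minus strand: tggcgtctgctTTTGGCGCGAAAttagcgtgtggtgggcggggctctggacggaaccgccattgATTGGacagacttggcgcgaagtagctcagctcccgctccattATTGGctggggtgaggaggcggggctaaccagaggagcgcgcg
Gins1, chr3:160184770-160184919, plus strand: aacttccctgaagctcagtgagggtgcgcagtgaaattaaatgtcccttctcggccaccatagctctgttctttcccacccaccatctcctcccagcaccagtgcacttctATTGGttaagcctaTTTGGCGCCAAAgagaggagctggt
The 4 mitotic genes below have a CHR motif in the same interval, and Cdk1 is the mitotic gene whose window also held an E2F site.
Cdk1, chr20:19265143-19265292, plus strand: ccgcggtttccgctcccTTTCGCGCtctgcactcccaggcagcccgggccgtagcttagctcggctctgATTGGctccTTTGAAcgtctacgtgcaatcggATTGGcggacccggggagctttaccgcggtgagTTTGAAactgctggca
Ccnb2, chr8:79981659-79981808, minus strand: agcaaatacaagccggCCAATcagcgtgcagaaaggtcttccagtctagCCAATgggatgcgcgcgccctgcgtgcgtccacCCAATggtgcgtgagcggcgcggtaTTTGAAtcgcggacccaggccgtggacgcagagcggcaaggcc
Cdc20, chr5:137255800-137255949, minus strand: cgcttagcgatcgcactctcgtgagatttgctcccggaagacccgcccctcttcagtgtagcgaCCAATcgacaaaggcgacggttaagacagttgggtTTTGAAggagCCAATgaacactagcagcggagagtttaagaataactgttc
Top2a, chr10:84473094-84473243, minus strand: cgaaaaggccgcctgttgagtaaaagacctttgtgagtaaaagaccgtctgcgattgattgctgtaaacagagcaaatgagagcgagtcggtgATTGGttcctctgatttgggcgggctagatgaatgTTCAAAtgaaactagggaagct
A capital run such as TTTGGCGCCAAA in Gins1 is an E2F match read on each strand, and ATTGG or TTCAAA is CCAAT or CHR on the opposite strand.

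An E2F match was present in 9 of 16 replication windows (56.2%) and in 1 of 20 mitotic windows (5.0%), against 2.25% of the 27457 windows of all genes and 3.87% of the windows of tested genes. A CHR match was present in 13 of 20 mitotic windows (65.0%) and in 1 of 16 replication windows (6.25%), that of Mcm2, against 18.1% of all windows and 12.1% of those of tested genes. Both CHR and CCAAT occurred in 11 of 20 mitotic windows (55.0%) and in 0 of 16 replication windows, against 7.25% of all windows. CCAAT alone was frequent in both classes, in 10 of 16 replication windows (62.5%) and 15 of 20 mitotic windows (75.0%), against 37.7% of all windows. The listed genes of each kind outside the 46 had like shares, with E2F in 15 of 37 other replication windows (40.5%) and CHR in 25 of 36 other mitotic windows (69.4%). A match describes the letters of a window and does not show that a factor binds there.

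In GPI, every one of the 46 genes was lower than in Sham. The median log2 fold change was -5.59, with a range from -7.34 for Cdc6 to -2.15 for Fen1, while the median of all genes tested was -0.19. All 46 were called lower by edgeR's quasi-likelihood test, the largest adjusted p being 0.000121 for Foxm1, and the 3 GPI libraries lay below the 3 Sham libraries for each gene. Over all genes tested, 48.1% were called lower in GPI and 48.2% had all GPI libraries below all Sham libraries. Together the 46 genes took 1.11% to 1.14% of a Sham library's counts and 0.0169% to 0.0171% of a GPI library's, or 178925 to 203549 counts against 2928 to 3366. In these bulk samples, fewer dividing cells and less of the RNA per cell cannot be told apart. Whether tissue of several animals went into 1 library is not stated in the labels, and the p-values reflect only how much these libraries varied.

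Marrow markers fell with the cell cycle genes. Of 8 tested cartilage markers 5 were called higher in GPI, 2 lower and 1 was not called, where 6387 of all 15936 genes tested were called higher. These calls follow TMM scaling. In unscaled counts the cartilage list of 11 genes took a lower share in GPI, 0.0202% to 0.0204%, than in Sham, 0.0255% to 0.0270%. The cartilage list thus had no clear direction. Of 14 erythroid markers 13 were called lower in GPI, and Tfrc, the transferrin receptor, was called higher by 0.22 (log2), and the list took 1.80% of Sham counts and 0.149% to 0.154% of GPI counts. All 11 tested neutrophil and precursor markers were called lower, and their share was 1.01% to 1.09% in Sham and 0.000717% to 0.000842% in GPI. All 11 B-lineage markers were called lower, with Vpreb1 at 0 in GPI, and all 14 muscle markers were called higher (median log2 fold change 6.52). Their part in the lower level of the division genes was not tested.

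**Figure D1:**
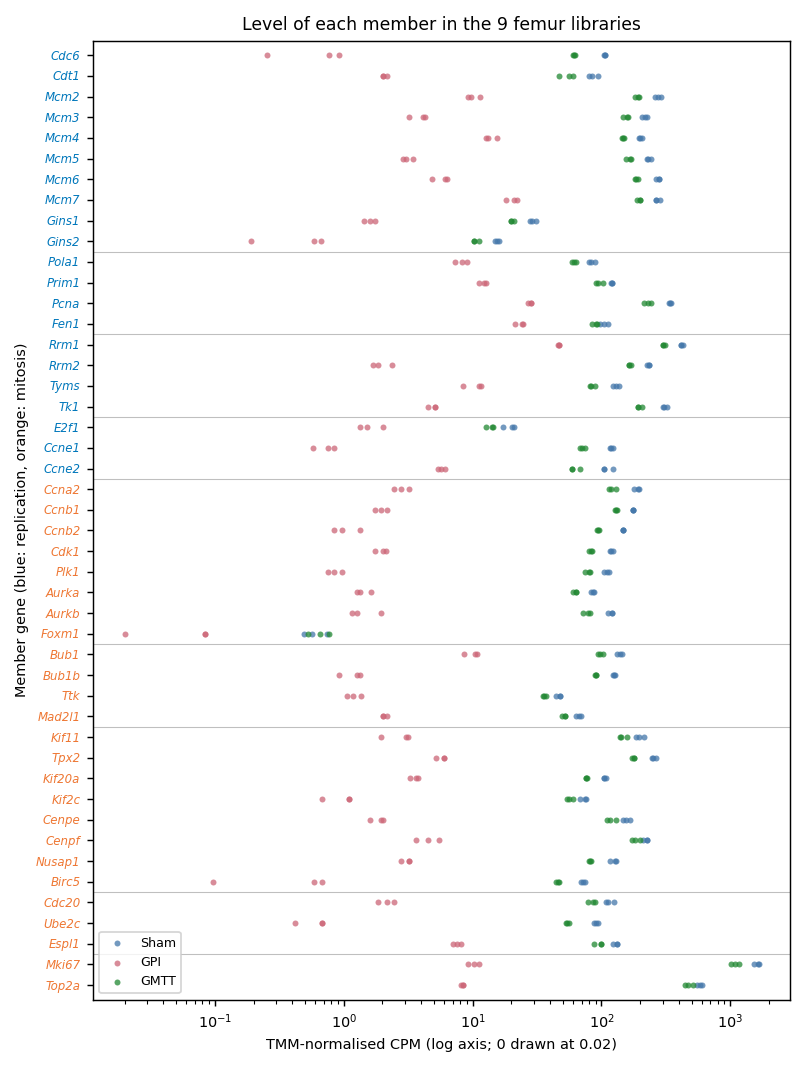
Level of each of the 46 genes in the 9 libraries, as TMM-scaled CPM on a log axis (x) with genes on the y axis grouped by role, 1 point per library and colours for Sham, GPI and GMTT, with the value of 0 in 1 GPI library (Foxm1) drawn at the left edge. For each gene the 3 GPI points lie to the left of the Sham and GMTT points, and the GMTT points lie just left of Sham except for Foxm1, where they overlap.

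Mki67, which encodes the proliferation marker Ki-67 that coats mitotic chromosomes (ENSRNOG00000028137, chromosome 1, 190496319 to 190522762 in mRatBN7.2, minus strand), stood at 1634, 1658 and 1534 CPM in Sham. It stood at 11.3, 9.16 and 10.2 CPM in GPI and at 1016, 1091 and 1158 CPM in GMTT. The GPI libraries were far below both other groups, and GMTT lay between them without overlap. The log2 fold change was -7.30 in GPI against Sham (SE 0.073, adjusted p = 8.38e-38 by edgeR's quasi-likelihood test). Top2a, the topoisomerase II isoform of dividing cells (chromosome 10, 83945735 to 83976874), stood at 584.5, 604.4 and 552.2 CPM in Sham, at 8.47, 8.07 and 8.38 in GPI and at 442.7, 465.1 and 510.7 in GMTT. It fell by 6.13 (log2, SE 0.075) in GPI, again with no overlap between any groups.

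Among the licensing and helicase genes, all 10 fell in GPI, with a median of -5.15. Cdc6, the loader of the helicase (chromosome 10, 83864638 to 83878011), had a fitted change as large as that of Ccne1, and it stood at 104.5, 106.5 and 105.7 CPM in Sham, at 0.254, 0.924 and 0.771 in GPI and at 60.8, 62.0 and 59.8 in GMTT. Its log2 fold change in GPI was -7.34 (SE 0.13), against -7.33 for Ccne1, so their order is not resolved. Cdt1, its partner in loading, fell by 5.36. Mcm7, the helicase subunit with the most counts, stood at 265.2, 265.4 and 284.6 CPM in Sham, at 20.99, 22.1 and 18.1 in GPI and at 200.2, 199.7 and 188.6 in GMTT. It fell by 3.73 in GPI (SE 0.065), the least of the 6 helicase subunits, and Mcm5 fell the most, by 6.21. The others stood at -4.77 (Mcm2), -5.82 (Mcm3), -3.86 (Mcm4) and -5.58 (Mcm6). Gins1 and Gins2, which join the helicase when it is activated, were at -4.20 and -4.94. Emc8 spans the whole of Gins2 on the same strand over 12570 bases, with 258 counts in GPI against 17 for Gins2, so the Gins2 value is uncertain.

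The 6 MCM subunits form 1 ring, so their levels per gene length (FPKM) can be set side by side. In Sham the highest, Mcm7 at 89.9 FPKM, was 1.81 times the lowest, Mcm4 at 49.7, and in GMTT the same pair stood at 66.3 and 37.1, a ratio of 1.79. In GPI the highest was Mcm7 at 6.89 FPKM and the lowest Mcm5 at 0.970, a ratio of 7.11. Without Mcm7 the ratio was 1.66 in Sham and 1.56 in GMTT, against 3.59 in GPI. The ring's subunits were thus within a narrow band in Sham and GMTT and were spread more widely in GPI. Mcm7 overlaps Cops6 on the opposite strand over 4160 bases, and Cops6 had 2734 counts in GPI against 3235 in Sham, so the Mcm7 value in GPI is uncertain if strand was not used in counting.

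The DNA synthesis genes kept more of their Sham level than any other role class, with a median log2 fold change of -3.33, although all 4 fell. Pcna, the sliding clamp (chromosome 3, 119498810 to 119502995), stood at 344.0, 337.3 and 332.1 CPM in Sham, at 26.7, 28.2 and 28.6 in GPI and at 229.0, 215.2 and 241.5 in GMTT, a log2 fold change of -3.60 in GPI (SE 0.059). Fen1, the nuclease that trims Okazaki fragments and also acts in base excision repair (chromosome 1, 206844884 to 206850003), stood at 103.8, 96.9 and 112.2 CPM in Sham, at 24.6, 21.5 and 24.4 in GPI and at 92.4, 90.9 and 85.0 in GMTT. It was the least reduced of the 46, at -2.15 (SE 0.070), and kept 22.5% of its Sham level, or 10.6% without scaling between libraries. Pola1, the catalytic subunit of polymerase alpha, stood at -3.36 and kept 9.77%, and Prim1, its primase partner, stood at -3.30 and kept 10.1%. Without scaling these were 4.58% and 4.75%.

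In nucleotide supply, the subunits of ribonucleotide reductase moved unequally. Rrm1, the large subunit (chromosome 1, 156823960 to 156848261), stood at 416.9, 425.7 and 411.6 CPM in Sham, at 46.6, 46.3 and 47.0 in GPI and at 297.7, 298.1 and 312.7 in GMTT, and fell by 3.16 in GPI (SE 0.052). Rrm2, the small subunit made in S phase, stood at 232.9, 233.6 and 226.0 CPM in Sham, at 2.37, 1.68 and 1.83 in GPI and at 169.2, 164.2 and 164.6 in GMTT, and fell by 6.87 (SE 0.089). Rrm2b, the small subunit induced by p53 and used outside S phase, was not among the 46 and was called higher in GPI, by 1.24 (SE 0.069, adjusted p = 2.76e-17 by edgeR's quasi-likelihood test). Per gene length, Rrm2 exceeded Rrm2b in Sham, at 87.6 ± 1.85 against 6.68 ± 0.637 FPKM (SD, n = 3), and lay below it in GPI, at 0.759 ± 0.140 against 16.2 ± 0.473. In GMTT the order was that of Sham, at 64.3 ± 1.30 against 7.77 ± 0.256. Tyms, thymidylate synthase, stood at -3.65 and Tk1, the cytosolic thymidine kinase, at -5.97, both called lower.

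At S phase entry both cyclin E genes fell. Ccne1 (chromosome 1, 90781949 to 90791101) stood at 118.0, 115.5 and 123.0 CPM in Sham, at 0.847, 0.756 and 0.578 in GPI and at 74.6, 68.4 and 71.2 in GMTT, a log2 fold change of -7.33 in GPI (SE 0.12). Ccne2 (chromosome 5, 24284922 to 24297632) stood at 105.5, 122.0 and 104.0 CPM in Sham, at 6.10, 5.38 and 5.68 in GPI and at 59.1, 59.3 and 68.0 in GMTT, a log2 fold change of -4.27 (SE 0.096). Ccne1 thus kept 0.611% of its Sham level and Ccne2 5.18%, or 0.287% and 2.425% without scaling. E2f1, the transcription factor that switches on many S phase genes, fell by 3.57.

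The mitotic cyclins and kinases fell further, with a median of -6.19 over the 8 genes of that class. Ccna2, the cyclin of S phase and early mitosis, stood at 192.1, 194.4 and 177.4 CPM in Sham, at 2.46, 3.19 and 2.79 in GPI and at 118.4, 115.0 and 129.6 in GMTT, and fell by 6.06 in GPI (SE 0.095). The cyclin B genes Ccnb1 and Ccnb2 fell, with log2 fold changes of -6.48 and -7.10. Their kinase Cdk1 stood at -5.92, the polo kinase Plk1 at -7.00, and the Aurora kinases Aurka and Aurkb at -5.92 and -6.32, all called lower. Foxm1, the transcription factor of G2 and mitosis (chromosome 4, 161638816 to 161650684), was read at very low levels in all groups: 0.489, 0.563 and 0.736 CPM in Sham, 0.0847, 0.0840 and 0 in GPI and 0.768, 0.527 and 0.658 in GMTT. It had 39 counts over the Sham libraries and 2 over the GPI libraries, a scaled ratio of 10.2 with a 95% counting interval from 2.64 to 87.1. At 0.137 FPKM in Sham it lay far under the next lowest gene, Gins2 at 3.60, and its model shares most of its span with the models of Nrip2 and Tex52 on the same strand, so its level is uncertain.

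The 4 spindle checkpoint genes had a median of -5.13. Bub1, a checkpoint kinase at kinetochores, stood at 140.0, 143.7 and 130.9 CPM in Sham, at 8.55, 10.5 and 10.9 in GPI and at 97.3, 93.3 and 103.6 in GMTT, and fell by 3.80 in GPI (SE 0.079). Bub1b, which encodes the checkpoint protein BubR1, fell by 6.73 (log2), and Ttk (the kinase Mps1) and Mad2l1 (MAD2) fell to -5.26 and -4.99. The 8 spindle, kinetochore and chromosomal passenger genes had a median of -5.89. Tpx2, an activator of Aurora A on the spindle, stood at 251.6, 266.4 and 245.5 CPM in Sham, at 6.01, 5.97 and 5.20 in GPI and at 171.7, 180.2 and 178.3 in GMTT, and fell by 5.47 (SE 0.076). Birc5, the passenger protein survivin, fell by 7.23, and Kif11, the kinesin that separates the spindle poles, fell by 6.19. Cenpe, a kinetochore motor, stood at -6.40, Kif2c, which shortens microtubules at centromeres, at -6.22, and Cenpf, a large kinetochore protein, at -5.59. Nusap1, which bundles microtubules, stood at -5.34 and Kif20a, a kinesin of cytokinesis, at -4.88, all called lower.

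The 3 anaphase genes had a median of -5.73. Espl1, the separase that cuts cohesin, stood at 131.0, 123.7 and 132.0 CPM in Sham, at 7.53, 8.07 and 7.03 in GPI and at 98.8, 98.6 and 87.9 in GMTT, and fell by 4.09 (SE 0.080). Ube2c, the ubiquitin-conjugating enzyme of the anaphase-promoting complex, stood at 86.8, 90.1 and 94.2 CPM in Sham, at 0.677, 0.420 and 0.674 in GPI and at 53.2, 55.6 and 54.4 in GMTT, and fell by 7.25 (SE 0.13). Cdc20 fell by 5.73. Ube2c overlaps the muscle troponin gene Tnnc2 on the opposite strand over 69 bases, and Tnnc2 had 6512 counts in Sham and 237243 in GPI, so even the few Ube2c counts in GPI are uncertain. In all, 11 of the 46 genes overlap a protein-coding gene, 2 of them on the same strand. Opposite-strand overlaps include Tk1 with Syngr2 (2953 bases), Kif20a with Cdc23 (1891) and Ccna2 with Exosc9 (963). In GPI these partners had 3615, 964 and 701 counts, against 167, 122 and 96 for the members. Those GPI values are uncertain if strand was not used in counting. Gins2, Foxm1, Birc5 and Ube2c had fewer than 10 counts in each GPI library and passed the low-count filter through the other groups. Cdc6 and Ccne1, the most reduced genes, also passed it that way, with 22 and 25 counts over the GPI libraries. So did Ccnb2, Plk1, Bub1b and Kif2c, with 36, 29, 40 and 33 counts. Each of these genes had at least 1 GPI library under the filter's cutoff of 0.563 unscaled CPM. Their calls and the size of their falls thus rest on high levels in Sham and GMTT. Of the 46 genes, 8 had a mean below 1 CPM in GPI.

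At the median, replication genes kept more of their Sham level than mitotic genes in GPI, but not in every role. Licensing and helicase genes, at a median of -5.15, lay close to the spindle checkpoint genes, at -5.13. The median log2 fold change was -4.27 over the 21 replication genes and -6.06 over the 25 mitotic genes, a difference of 1.79. It was 1.15 between means and 1.18 between medians on log2(FPKM + 1). Of the replication genes 17 of 21 lay above the mitotic median, and of the mitotic genes 22 of 25 lay below the replication median. The level left in GPI was 5.18% of Sham at the replication median and 1.497% at the mitotic median. The lowest levels left came from both classes: Ccne1 (0.611%), Cdc6 (0.616%), Birc5 (0.634%), Mki67 (0.635%) and Ube2c (0.654%). No test was run on the difference between the classes, because the genes were chosen with results in view.

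**Figure D2:**
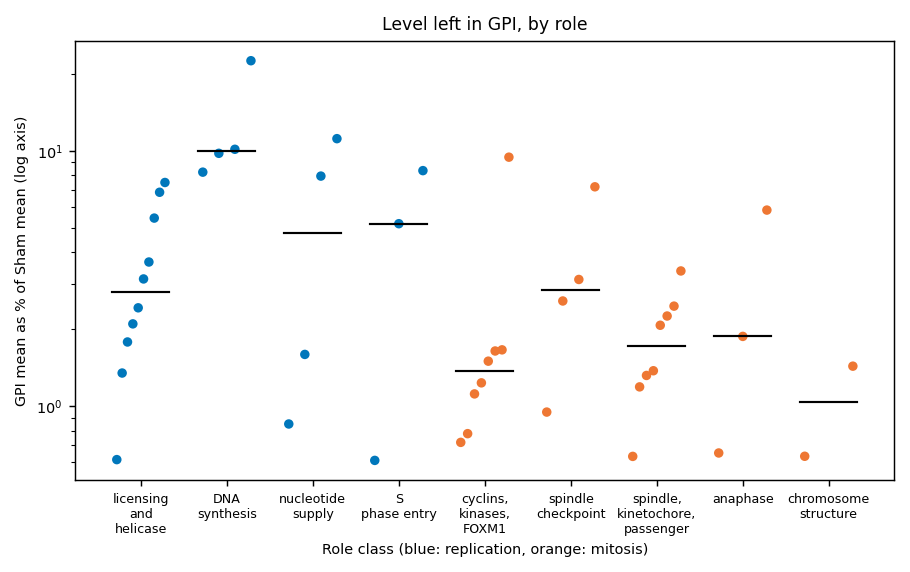
Mean GPI level of each gene as a percent of its Sham mean (y, log axis, TMM-scaled CPM), 1 point per gene, by role class on the x axis, replication classes in blue and mitotic classes in orange, and lines for the class medians. The DNA synthesis class has the highest median, with genes from 8.24% to 22.5%, while Rrm1 in nucleotide supply sits at 11.2%, and Mki67 and Top2a sit at 0.635% and 1.43%.

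The same contrast was read within each library, where scaling between libraries cancels in shares of counts. Replication genes took 41.9%, 41.5% and 43.3% of the 46 genes' counts in the Sham libraries, 72.2%, 72.5% and 73.0% in GPI and 42.6%, 41.4% and 40.5% in GMTT. The GPI libraries lay far above the others, and Sham and GMTT overlapped. DNA synthesis genes went from 7.39% ± 0.0785 in Sham to 25.3% ± 1.15 in GPI and 7.71% ± 0.232 in GMTT (SD, n = 3). Mki67 alone went from 18.4% ± 0.564 to 3.61% ± 0.353 and 17.7% ± 0.840. Nucleotide supply went from 12.5% to 22.6% between Sham and GPI means, while the mitotic cyclins and kinases went from 10.8% to 4.08% and the spindle genes from 13.8% to 8.08%. The other replication roles changed little in share. Licensing and helicase genes took 19.5% in Sham and 21.8% in GPI, and S phase entry genes 2.85% in each. The higher replication share in GPI thus lay mainly in DNA synthesis and nucleotide supply. Spindle checkpoint genes took 4.30%, 5.10% and 4.47% on average in Sham, GPI and GMTT, and anaphase genes 3.83%, 3.64% and 3.81%. The difference between the classes' median log2(TMM-scaled CPM + 0.5) was 0.07 ± 0.069 in Sham, 1.26 ± 0.14 in GPI and 0.15 ± 0.13 in GMTT, with replication higher in all 9 libraries. With the added 0.5, scaling does not fully cancel in this measure, and low GPI values are compressed.

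**Figure D3:**
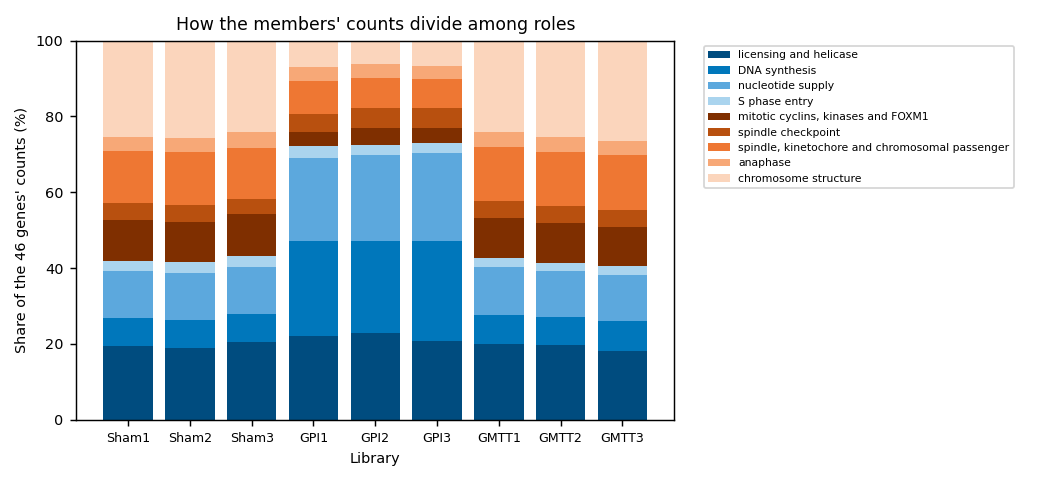
Stacked bars of how the 46 genes' counts divide among the 9 role classes (y, percent) in each of the 9 libraries (x). In the GPI libraries the DNA synthesis and nucleotide supply classes widen, to 25.3% and 22.6% on average, and the Mki67 and Top2a class narrows from 25.1% in Sham to 6.54%.

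Inside each class, the size of the fall was set beside the motifs. Replication genes with an E2F match had a median of -4.77 (9 genes) and those without one -3.60 (7 genes, which hold both Fen1 at -2.15 and Ccne1 at -7.33). Mitotic genes with a CHR match had a median of -5.92 (13 genes) and those without one -6.19 (7 genes). These are descriptions of 36 genes, and the upstream letters printed above for Mcm5 and Gins1, each with an E2F match, belong to genes with log2 fold changes of -6.21 and -4.20.

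Per gene length, the order of levels within the 46 also moved. In Sham Pcna was highest at 223.8 ± 4.10 FPKM, then Mki67 at 158.8 ± 7.02 and Rrm1 at 123.3 ± 2.61 (SD, n = 3). In GPI Pcna remained highest at 18.8 ± 0.754, followed by Rrm1 at 14.0 ± 0.181 and Fen1 at 8.08 ± 0.619, and Mki67 stood at 1.03. In GMTT the order at the top was that of Sham, with Pcna at 154.7 ± 8.71, Mki67 at 109.8 and Rrm1 at 91.2. Of the 45 pairs of neighbours in the order, the ranges of the libraries overlapped for 28 in Sham, 41 in GPI and 29 in GMTT, so most of the finer order is not resolved.

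In GMTT, every one of the 46 genes was higher than in GPI. The median log2 fold change was 5.16, from 1.93 for Fen1 to 6.74 for Mki67, with all 46 called higher by edgeR's quasi-likelihood test (largest adjusted p 5.65e-05, Foxm1) and no overlap between the groups. Over all genes tested 45.7% were called higher and 46% had all GMTT libraries above all GPI libraries, and the median of all genes was 0.12. This contrast and the one with Sham use the same GPI libraries, so they are not independent. The median was 3.67 over replication genes and 5.47 over mitotic genes, and it ran from 2.94 for DNA synthesis to 6.28 for Mki67 and Top2a. By role the medians were 4.54 for licensing and helicase, 4.17 for nucleotide supply, 3.44 for S phase entry, 5.59 for the mitotic cyclins and kinases and 5.55 for the spindle genes. Foxm1 had 45 counts in GMTT against 2 in GPI, a scaled ratio of 11.1 with a 95% counting interval from 2.91 to 94.6.

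Marker lists of other cells differed between GMTT and GPI as well. All 14 muscle markers were called lower in GMTT (median -3.50), 13 of 14 erythroid markers were called higher (median 8.17, with Tfrc called lower by 0.61), and all 11 tested neutrophil markers (median 10.14) and all 11 B-lineage markers (median 7.72) were called higher. Their part in the higher level of the division genes was not tested.

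Against Sham, the genes in GMTT were slightly lower. Of the 46, 45 were called lower by edgeR's quasi-likelihood test and 1, Foxm1, was not called (log2 fold change 0.13, SE 0.33, adjusted p = 0.761). The median log2 fold change was -0.49, or 71.1% of the Sham level, against a median of -0.0031 for all genes tested. For the 45 genes the 3 GMTT libraries lay below the 3 Sham libraries. Over all genes tested 28.3% were called lower and 30.4% had all GMTT libraries below all Sham libraries. The 46 genes took 0.787% to 0.807% of a GMTT library's counts.

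The lowest values in GMTT were those of Ccne2, Cdc6, Ccne1 and Ube2c. Ccne2 was lowest at -0.83 (SE 0.062, adjusted p = 4.85e-13 by edgeR's quasi-likelihood test), with 59.1 to 68.0 CPM in GMTT against 104.0 to 122.0 in Sham. Cdc6 followed at -0.79 (SE 0.056) and Ccne1 at -0.74 (SE 0.052). Ube2c, a mitotic gene, was at -0.73 (SE 0.054), within the SE of Ccne1. At the other end Fen1 was lower by only 0.22 (log2 fold change -0.22, SE 0.056, adjusted p = 0.00118), with 85.0 to 92.4 CPM in GMTT against 96.9 to 112.2 in Sham. Cenpf stood at 226.4, 223.8 and 208.7 CPM in Sham and at 171.8, 182.6 and 198.9 in GMTT, a log2 fold change of -0.25 (SE 0.055, adjusted p = 0.00025). Top2a was at -0.30 (SE 0.049) and Mki67 at -0.56 (SE 0.048).

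By role, the GMTT medians were -0.74 at S phase entry, -0.55 for nucleotide supply, -0.54 for licensing and helicase, -0.50 for the mitotic cyclins and kinases and -0.39 for DNA synthesis. The 6 helicase subunits lay close together, from -0.55 for Mcm6 to -0.45 for Mcm4. The replication median was -0.53 and the mitotic median -0.47, a difference of -0.06 between medians and -0.08 between means. The per-library contrast between the classes overlapped between Sham and GMTT on CPM, as given above. On log2 FPKM it was 0.26, 0.26 and 0.37 in Sham and 0.24, 0.19 and 0.17 in GMTT, which did not overlap, so the direction of this small difference depends on the measure. With limma on log2(FPKM + 0.1) in place of counts, Gins2 (adjusted p = 0.0525), Kif2c (0.0546), Cenpf (0.127) and Birc5 (0.19) were not called, and on log2(FPKM + 1) without a filter Fen1 (0.0655) was not.

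**Figure D4:**
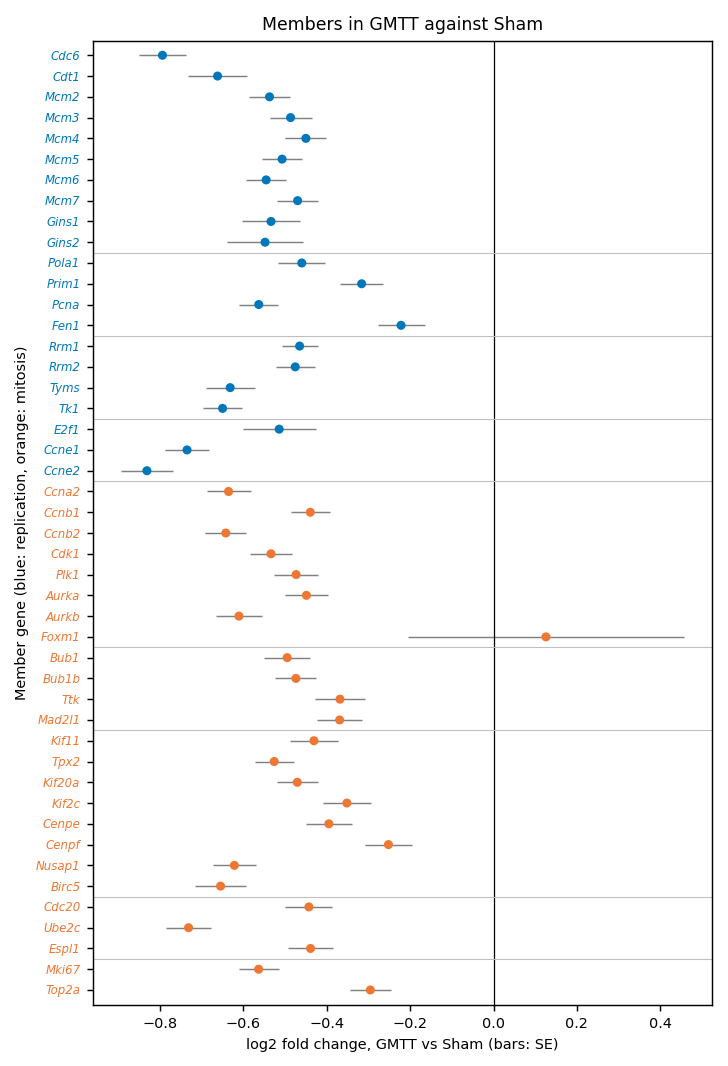
Log2 fold change in GMTT against Sham (x) for each of the 46 genes (y, replication in blue, mitosis in orange), with bars for the SE from edgeR. The genes lie between -0.83 for Ccne2 and -0.22 for Fen1, except Foxm1 at 0.13 with a wide bar.

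Marrow lists did not all move with the division genes in GMTT against Sham. All 14 erythroid markers were called lower (median -0.90) and took 1.02% to 1.03% of counts against 1.80% in Sham, and all 11 B-lineage markers were called lower (median -0.78). Of 11 tested neutrophil markers 7 were called higher and the other 4 were not called (median 0.31). All 14 muscle markers were called higher (median 3.15). Their part in the lower level of the division genes was not tested.

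Other genes of the pathway, from fixed lists, were read in the same fit. Of 41 tested other replication genes, 39 were called lower in GPI, 1 higher and 1 was not called (median -3.68). Of 39 tested other mitotic genes, all 39 were called lower (median -5.41). The lists were drawn up with results of these libraries known, so they are not independent evidence of a direction. Among the genes with the smallest p were Uhrf1 (-5.66) and Dnmt1 (-3.83), which copy DNA methylation at the fork, Clspn (-6.95), a fork checkpoint mediator, and Dut (-3.11), the dUTPase. On the mitotic side were Racgap1 (-5.97) and Prc1 (-5.44), which act at the spindle midzone, Ncapd2 (-4.75), a condensin subunit, and Dlgap5 (-6.53).

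The origin recognition complex, which marks origins for the helicase, split by subunit. The subunits were singled out after their values were seen. Orc1 and Orc6 were called lower in GPI, at -5.38 and -4.19, and Orc2 was at -1.97. Orc5 was at -0.19 (adjusted p = 0.033 by edgeR's quasi-likelihood test), Orc4 at -0.03 (adjusted p = 0.746) and Orc3 at 0.25 (adjusted p = 0.0107). The small differences depended on the scaling and on single libraries: Orc5 was not called with median-of-ratios scaling (adjusted p = 0.145), and Orc3 was not called without Sham replicate 3 (0.073), GPI replicate 1 (0.0962) or GPI replicate 2 (0.0749). With library sizes only, Orc3 was at -0.84 and Orc4 at -1.13, both called lower (adjusted p = 1.85e-10 and 9.18e-13 by edgeR's quasi-likelihood test). The near-unchanged level of these subunits thus depends on the scaling. Per gene length the 6 subunits stood between 6.43 FPKM (Orc4) and 19.1 (Orc2) in Sham, and in GPI between 0.371 (Orc1) and 9.77 (Orc3).

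In GMTT against GPI, 37 of the 41 other replication genes were called higher, 1 lower (Orc3, -0.32) and 3 were not called (Orc4, Orc5 and Pola2, of which Orc4 was called lower without GMTT replicate 3, adjusted p = 0.0453), and all 39 other mitotic genes were called higher (median 4.92). In GMTT against Sham, 38 of 41 other replication genes were called lower (median -0.47), and Orc3, Orc4 and Dna2 were not called (Orc4 was without GMTT replicate 3, adjusted p = 0.0456). Rfc4 (-0.91), a clamp loader subunit, Dut (-0.78) and Lig1 (-0.52), the ligase of Okazaki fragments, were among those with the smallest p. Of the 39 other mitotic genes, 37 were called lower (median -0.51). Pttg1, the securin that holds separase in check, was at -1.01. Cep55, a protein of the final cut between daughter cells, was called higher at 0.22, a call lost without Sham replicate 3 (adjusted p = 0.0501) or GMTT replicate 3 (0.0583), and Melk was not called (-0.17) but was called lower when either library was left out (adjusted p = 0.0421 and 0.026).

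Upstream of the 46, regulators of G1 and of cell cycle transcription were mixed. Of 30 tested, 26 were called lower in GPI, 3 higher and 1, Wee1, was not called (median -1.83). Mybl2, the B-Myb factor of the complex that switches on mitotic genes, had the largest fall of the list, from 176.5, 176.7 and 191.9 CPM in Sham to 0.508, 0.840 and 0.674 in GPI, with 115.0, 115.5 and 105.5 in GMTT. Its log2 fold change in GPI was -8.06, larger in size than that of any of the 46. E2f2, an activator of S phase genes, was at -6.28 and the phosphatase gene Cdc25b at -5.48. E2f6, a repressor of the E2F family, rose from 33.6, 32.6 and 34.5 CPM in Sham to 203.9, 227.9 and 214.4 in GPI, with 48.2, 49.0 and 50.2 in GMTT, a log2 fold change of 2.68 in GPI and 0.55 in GMTT against Sham. Lin52 was called higher in GPI by 0.22, a call lost without GPI replicate 2 (adjusted p = 0.0956) or Sham replicate 1 (0.0525).

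Cyclins D, which answer growth signals in G1, differed by gene. Ccnd3 was at -3.21 and Ccnd2 at -1.62 in GPI against Sham, and Ccnd1 was called higher at 0.46. With library sizes only, Ccnd1 turned to -0.63. In GMTT against Sham Ccnd3 was at -0.32, Ccnd2 was not called (0.11, but called with median-of-ratios scaling, adjusted p = 0.022, and with DESeq2, 0.0361) and Ccnd1 was called higher at 0.35, a call lost without Sham replicate 2 (adjusted p = 0.0516).

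The CDK inhibitors, which stop the cycle, also went in both directions. Cdkn1a, the p21 inhibitor induced by p53, stood at 3.33, 3.12 and 3.77 CPM in Sham, at 64.2, 68.9 and 64.5 in GPI and at 9.52, 9.49 and 8.65 in GMTT. The groups did not overlap, and the log2 fold change was 4.27 in GPI against Sham (SE 0.091, adjusted p = 6.84e-29 by edgeR's quasi-likelihood test), -2.84 in GMTT against GPI and 1.44 in GMTT against Sham. Cdkn1c, the p57 inhibitor, stood at 5.77, 7.02 and 6.58 CPM in Sham, at 23.7, 26.6 and 23.8 in GPI and at 6.15, 7.38 and 8.65 in GMTT. It was called higher in GPI at 1.93, and GMTT and Sham overlapped (0.19, not called, but called without GMTT replicate 1, adjusted p = 0.0348). The INK4 inhibitors Cdkn2c and Cdkn2d were lower in GPI, at -4.18 and -3.55, and in GMTT against Sham, at -0.56 and -0.32. Cdkn1b, the p27 inhibitor, was at -1.63 and -0.72 in those contrasts. Cdkn2b was not called in any of the 3 contrasts and Cdkn2a had too few counts to test.

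Paralogues that non-dividing cells also use had other log2 fold changes than their partners among the 46. In GPI against Sham Top2b was at -1.57 where Top2a was at -6.13, and Tk2, the mitochondrial thymidine kinase, was at -2.54 where Tk1 was at -5.97. Plk2 was called higher at 0.89 and Plk3 was not called (-0.30, but called on log2(FPKM + 1), adjusted p = 0.0491), where Plk1 was at -7.00. With library sizes only Plk2 turned to -0.21, and Plk3 was called lower at -1.39 (adjusted p = 7.31e-08 by edgeR's quasi-likelihood test). In GMTT against Sham Top2b was at -0.28. Rrm2b (0.19), Tk2 (0.20) and Plk2 (0.28) were called higher there, but each call was lost when single libraries were left out: without Sham replicate 3 the adjusted p was 0.187 for Rrm2b and 0.0784 for Tk2, and without GMTT replicate 2 it was 0.0557 for Rrm2b, 0.055 for Tk2 and 0.268 for Plk2.

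**Figure D5:**
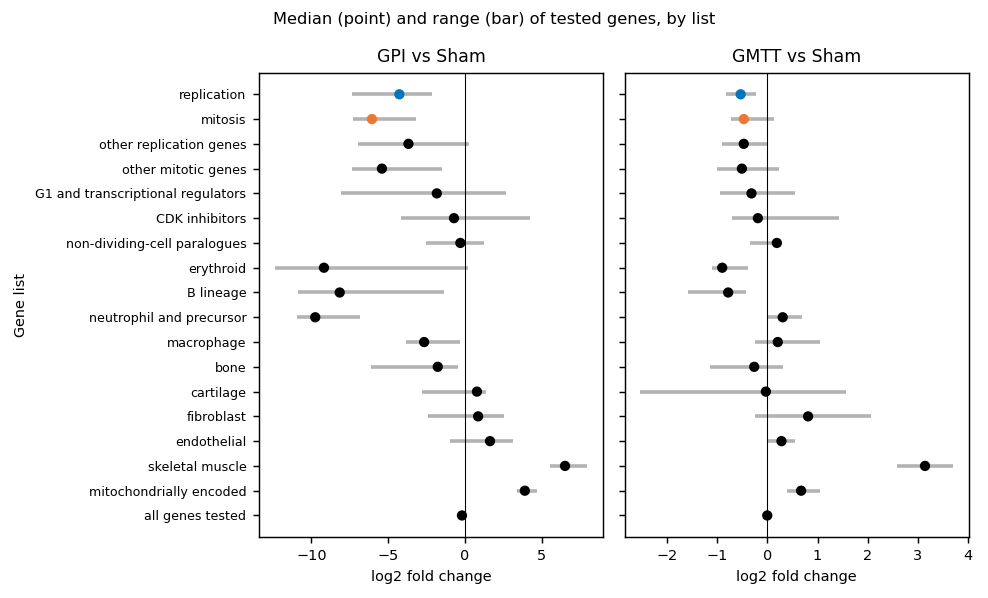
Median (point) and range (bar) of the log2 fold change of the tested genes of each list (y). There is 1 panel for GPI against Sham and 1 for GMTT against Sham (x axes), and the point for all genes tested is shown without a bar. Replication and mitotic lists lie far below 0 in GPI against Sham and at -0.47 to -0.53 in GMTT against Sham, while the skeletal muscle list has medians of 6.52 and 3.15.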

How the data were processed

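Bulk RNA from 9 rat femur samples was sequenced, 3 for each of Sham, GPI and GMTT. TRIzol extraction, poly(A) selection and dUTP libraries read as pairs are given per the labels' protocols. The submitters' processing notes name the build mRatBN7.2. The aligner and the counter are not given in the sources used, nor is the counter's strand setting. Gene read counts, as whole numbers, and gene FPKM were deposited by the authors. Each deposited FPKM equals the count divided by gene length and by a constant of its library (largest relative deviation 5.11e-15), and that constant was 1.31 (Sham), 0.604 (GPI) and 1.30 (GMTT) times the library total on average, so FPKM already carry a scaling.

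Counts were tested with edgeR 4.0.16 in R 4.3.3 (TMM, filterByExpr with minimum count 10, robust quasi-likelihood F test, 2-sided, all 9 libraries in 1 model), which kept 15936 genes. The threshold was an adjusted p below 0.05 (Benjamini-Hochberg over these genes). SE are |log2 fold change| over the square root of F. The test was tried on simulated counts in which all groups had the same makeup apart from a small set of changed genes. That check does not cover the shift in makeup seen in GPI. The depth was 15927429 to 19715997 counts per library, and counting intervals cover counting error only. Replicates of a group differed by more than sampling noise (chi-square per degree of freedom 1.99 to 5.17), and each counted as 1 sample. This spread does not show whether the libraries came from separate animals. All 46 genes are accounted for by role. Genes given per library were Mki67, Top2a, the gene with the most counts in each role, and the extremes of the GPI and GMTT contrasts with Sham, by rule, and all CDK inhibitors, D cyclins and paralogues and the up to 4 genes of smallest p in each other list were named, except 1 that is not reported here. Rrm2, Mcm5, the origin recognition subunits and genes named as exceptions to a count were chosen after their values were seen. The genes and lists were chosen with earlier results of these data known, so no list was tested. Alternatives were limma 3.58.1 on log2(FPKM + 1) and log2(FPKM + 0.1), DESeq2 1.42.0, other scalings and filters, the 6 libraries of a contrast alone, a replicate block and leaving out each library.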

Additional observations from a re-analysis of the deposited data

How the results depend on the processing

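All 46 genes kept their call in GPI against Sham and in GMTT against GPI under every alternative run that gave them a value, and with at least 5 CPM in 3 libraries Foxm1 had none. In GMTT against Sham the calls of 45 genes held except those of Gins2, Kif2c, Cenpf, Birc5 and Fen1 named above on FPKM, and Foxm1, not called, turned to -0.01 (-0.0104) without GMTT replicate 1 (highest 0.30). The median of the 46 genes in GPI against Sham was -5.52 with median-of-ratios scaling, -6.68 with library sizes only, -5.53 with DESeq2, -5.55 with the CPM filter, -5.55 with 6 libraries, -5.54 with TMM computed without mitochondrial and muscle genes, -4.37 on log2(FPKM + 1) with or without the filter, -5.42 on log2(FPKM + 0.1), and -5.63 to -5.55 with single libraries left out. In GMTT against GPI it was 6.26 with library sizes only, 5.24 with the CPM filter, 5.12 without mitochondrial and muscle genes, 3.89 on log2(FPKM + 1) with or without the filter and 5.01 on log2(FPKM + 0.1). In GMTT against Sham it was -0.46 (-0.4553) with median-of-ratios scaling and with DESeq2, -0.44 on log2(FPKM + 1) with or without the filter and -0.46 on log2(FPKM + 0.1). The replication minus mitosis difference in GPI against Sham was 1.18 on log2(FPKM + 1) with or without the filter, 1.15 between means, and 1.54 without the S phase entry genes and Ccna2, and in GMTT against GPI it was -1.18 on log2(FPKM + 1) and -1.23 between means. The FPKM pseudocount compresses low values by construction, and the other causes were not tested.

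With library sizes only, the median of all genes moved to -1.28 in GPI against Sham and 1.22 in GMTT against GPI (0.01 in GMTT against Sham), 3521 genes were called higher in GPI against Sham, and 11503 were called higher and 3016 lower in GMTT against GPI. The share of called genes that were higher went from 45.5% to 23.9% and from 53.2% to 79.2%. Relative to that shift the 46 genes kept their direction. Other genes changed sign with library sizes only, most from small differences but Rrm2b in GMTT against GPI from -1.05 and Plk2 from 0.89 in GPI against Sham and -0.61 in GMTT against GPI: in GPI against Sham Orc3 (-0.84), Ccnd1 (-0.63), Wee1 (-1.08), Lin52 (-0.87), Cdkn2b (-0.88) and Plk2 (-0.21), and in GMTT against GPI Orc3 (0.79), Orc4 (1.00), Orc5 (0.99), Pola2 (1.09), Ccnd1 (0.99), Wee1 (0.90), Lin52 (0.44), Cdkn2b (0.83), Rrm2b (0.049), Plk2 (0.49) and Plk3 (1.05). Orc4 in GPI against Sham also turned, to between 0.00 (0.0044) and 0.03, under median-of-ratios scaling (0.0275), DESeq2 (0.027), the CPM filter (0.0134), 6 libraries (0.0057), TMM without mitochondrial and muscle genes (0.0137) and without GPI replicate 3 (0.0073) or GMTT replicate 3 (0.0044), in a leave-one-out range from -0.0682 to 0.0073. Wee1 turned to -0.01 (-0.0088) with no filter, -0.02 (-0.0163) without Sham replicate 3 and -0.05 (-0.0464) without GPI replicate 1, the highest value being 0.0752. In GMTT against GPI Pola2 turned to 0.02 (0.0223) with no filter, 0.0038 with 6 libraries, 0.0107 without GPI replicate 3 and 0.0125 without GMTT replicate 3 (lowest -0.0401), and Plk3 to 0.05 (0.0526) without GPI replicate 2 (lowest -0.1211). In GMTT against Sham Cdkn2b turned to 0.18, 0.05 and 0.0038 without Sham replicate 1, GMTT replicate 1 and GMTT replicate 2 (lowest -0.25), and Dna2 to -0.02 (-0.0167) and -0.0097 without Sham replicate 3 and GMTT replicate 3.

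Same-numbered samples correlated at -0.23 to 0.09 in their deviations from the group means, and differently numbered ones of other groups at -0.15 to 0.21. The ranges overlap and give no sign that the labels' replicate numbers pair the samples, but so few libraries cannot exclude a pairing. With a replicate block, 46, 46 and 45 genes were called in the 3 contrasts, as without it, with medians of -5.58, 5.16 and -0.49. Depth limits the GPI values of Gins2, Foxm1, Birc5 and Ube2c, which had under 10 counts per GPI library. It also limits those of Cdc6 and Ccne1, with 22 and 25 counts over the GPI libraries, and those of Ccnb2, Plk1, Bub1b and Kif2c, with 36, 29, 40 and 33.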
